A study of Sciaenops ocellatus with 24 samples.

Results

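The miRNA response of red drum (Sciaenops ocellatus) larvae to the middle concentration of source oil was measured by setting the 3 libraries of larvae kept in 0.27% source oil against the 3 libraries of the unexposed larvae of the same experiment, 6 of the 24 libraries of the study. All miRNA names of the count table of these 6 libraries were members, 193 in number. Red drum is a coastal fish of the Gulf of Mexico. The study exposed its embryos to source oil, a pipeline oil (labelled MASS) used as a surrogate for the oil of the Deepwater Horizon well, or to slick oil (labelled OFS), which had weathered at the Gulf surface. Each oil was blended into seawater of 35 ppt at 1 g per l, a high-energy water accommodated fraction, and this blend was diluted by volume. Source oil was given at 0.135%, 0.27% and 0.54% and had its own control at 0% oil. Slick oil at 2.50%, the middle of 3 concentrations, and the slick control (0%) served for 1 comparison. Embryos of every group came from brood stock tanks, had a formalin bath and were rinsed in sterilized seawater, and all samples were pools of whole animals at 48 hours post fertilization, called whole larva in one label and whole embryo in another. The labels do not tell whether the 3 libraries of a group stand for different spawns or tanks, and the p-values therefore measure only how far these samples spread, part of which may be technical. In whole larvae, fewer cells of a type and less RNA per cell cannot be told apart.

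A miRNA is a short RNA that pairs with messenger RNAs, mostly in their 3′ untranslated regions, and lowers their translation or stability. Many are made in a few cell types, such as miR-206 in skeletal muscle, miR-184 in lens and cornea or miR-144 in red blood cells, and the let-7 family rises as animal cells differentiate. Genes of some miRNAs lie side by side and are transcribed together, as in the miR-17-92 cluster, whose members promote cell division.

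The listed counts of a library summed to 8924168, 7043484 and 6778108 in controls 1 to 3 and to 8761901, 6992704 and 6842201 in exposed libraries 1 to 3. The names carry miRBase prefixes of different species, such as ssa for Atlantic salmon, dre for zebrafish, mdo for opossum and ola for medaka, and a name stands for the reads counted under it, with species and arm not checked. Of the 193 names 74 (38.3%) were at 0 in at least 1 library, 42 to 44 names in each library other than control 1, in which every listed name had a count. The table would therefore not list a miRNA that was counted in exposed larvae alone. The 115 names that had a count in every library and at least 10 counts in at least 3 libraries took 61.4% of the listed counts in control 1 and 76.4% to 81.5% in the other 5 libraries. Levels below are in CPM, the share of a name in the counts of these 115 names on a common scale, adjusted by TMM, edgeR's correction for the composition of a library. Group values are mean ± SD over 3 libraries and log2 fold changes are given ± SE.

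The larvae held miRNAs of many tissues, with those of the nervous system and muscle among the highest levels. The most abundant name was the neural aca-miR-9-5p, with 22.3% ± 1.75 of the listed counts in the controls and 26.5% ± 2.61 at 0.27% source oil. ssa-miR-206-5p, of skeletal muscle, followed with 18.3% ± 3.27 and 16.8% ± 1.20. Others among the 8 most abundant were at 0 in some library, such as cgr-miR-26a, with 0 counts in control 2 and 455682 to 657343 in the other 5, and ola-miR-181a-5p, with 0 in exposed library 3 and 219889 to 382807 in the other 5. Markers of endothelium (tgu-miR-126-5p), skin (pma-miR-203a-3p), pancreas (ipu-miR-375), gut (ola-miR-194-5p), white blood cells (tgu-miR-155-5p) and connective tissue (oan-miR-145-5p) were counted in every library. The gut marker xtr-miR-192 was at 0 in every library but control 1. The liver marker miR-122 and the white blood cell markers miR-150 and miR-223 had no name among the 193, so their levels could not be analysed.

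With TMM scaling, larvae in 0.27% source oil had lower levels of single miRNAs of the eye, red blood cells, muscle and brain and of let-7 names, and higher levels of miR-17, miR-19, miR-93 and miR-106 names. Of the 115 names, 27 (23.5%) differed from the control at a Benjamini-Hochberg adjusted p under 0.05 in edgeR's quasi-likelihood test, 11 higher (9.57%) and 16 lower (13.9%), as the plot of the 27 names by library shows. With names whose counts were within 1.0% of each other counted once, the calls were 25. Of the higher names, efu-miR-29b passed the filter on counts through the exposed libraries alone, so its call is only a description. The groups did not overlap in 45 of the 115 names (39.1%), 23 higher (20%) and 22 lower (19.1%), and the 27 called names were all among these 45. Library totals, here and below, are the summed counts of the names in a fit, not of all listed names. Scaling by these totals in place of TMM moved the median log2 fold change of the 115 names from 0.03 to 0.22. The calls moved to 31 higher (27%) and 2 lower (1.74%). Those 2 were ola-miR-184-5p and mdo-miR-128a-5p, and the other 14 lower names kept a negative log2 fold change but lost the call. The calls also depended on single libraries. Without control 1, 2 or 3 the test called 17, 2 and 1 names, and without exposed library 1, 2 or 3 it called 46, 1 and 6. The sign of all 27 was the same in these 6 fits, and 1 of them (ola-miR-184-5p) was called in each fit. The other names each lost the call in some fit. With efu-miR-29b left out, their largest edgeR adjusted p lay between 0.0804 and 0.168.

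**Figure D1:**
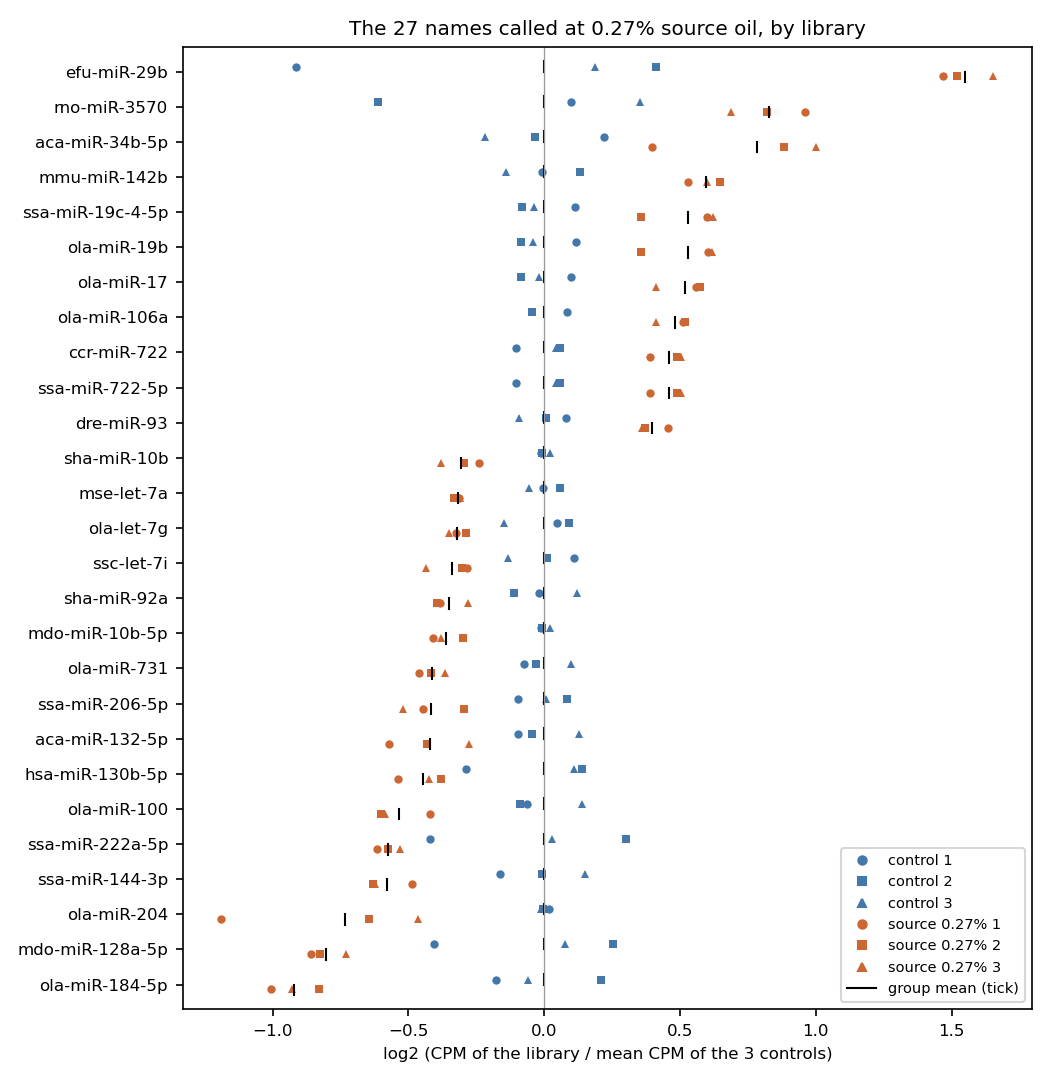
Level of each of the 27 called names in the 6 libraries, on the horizontal axis as log2 of the library's CPM over the mean CPM of the 3 controls, with control libraries in blue, exposed libraries in orange and black ticks at the group means. The names run from efu-miR-29b, with a log2 fold change of 1.52, to ola-miR-184-5p at -0.92, and in each of the 27 the blue and orange points do not overlap.

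The lower names were mostly abundant and the higher names mostly scarce. The 16 lower names had a median control level of 6260 CPM (77.2 to 265869) and together took 36.8%, 41.7% and 40.6% of the counts of the 115 names in the controls against 30.1%, 33.2% and 33.2% with exposure. The 11 higher names had a median control level of 36.2 CPM (0.719 to 3722) and took 0.594%, 0.504% and 0.536% against 0.872%, 0.875% and 0.893%. These shares describe names chosen by the same comparison.

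Of the eye miRNAs, miR-184 and miR-204 were lower, and miR-184 was the only call kept in each fit without 1 library. ola-miR-184-5p, of lens and cornea, stood at 10454, 13644 and 11351 CPM in the controls and at 5880, 6660 and 6203 CPM in the exposed libraries. Every exposed library lay well under every control, with a log2 fold change of -0.92 ± 0.11 (edgeR adjusted p = 0.00495) that became -0.73 under library totals. In the 6 fits without 1 library its adjusted p was at most 0.0281. ola-miR-204, of lens and retinal pigment epithelium, was nearly constant in the controls (11088, 10909 and 10854 CPM) and stood at 4805, 7000 and 7936 CPM with exposure. The groups did not overlap, but the exposed libraries differed among themselves, and exposed library 1 was the lowest. The log2 fold change was -0.73 ± 0.17 (edgeR adjusted p = 0.0227, 0.0604 under library totals and 0.0869 without control 2). Of the list of sensory organs and eye, 4 names were tested, 0 were higher and 2 lower, beside 9.57% higher and 13.9% lower over all 115 names. Scaled by library totals, 1 name of the list was higher and 1 lower, beside 27% higher and 1.74% lower over all 115. The median log2 fold change of the list was -0.47 against 0.03 over all 115 names. The other 2 names of the list were the hair cell and photoreceptor miRNAs chi-miR-182, at 33226, 33183 and 32642 against 28206, 30354 and 26783 CPM (-0.21 ± 0.08, edgeR adjusted p = 0.0839), and chi-miR-96 (0.15 ± 0.09, adjusted p = 0.268). These 2 are genomic neighbours, and their count ratio, which does not depend on scaling, was 6.398, 7.331 and 7.501 in the controls and 5.117, 6.068 and 5.286 with exposure. Their neighbour chi-miR-183 had 558998, 0 and 472059 counts in the controls and 0, 0 and 405247 with exposure, so no level could be given for it.

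Among blood and vessel miRNAs 3 names of 13 tested were lower and 1 was higher, around a median log2 fold change of 0.02, beside 13.9% lower and 9.57% higher over all 115 names. Scaled by library totals, 0 were lower and 1 was higher, beside 1.74% and 27% over all 115. ssa-miR-144-3p, an erythroid miRNA, was at 223.4, 248.8 and 277.7 CPM in the controls and at 178.5, 161.5 and 162.5 CPM with exposure. The groups were apart, with a log2 fold change of -0.58 ± 0.12 (edgeR adjusted p = 0.0227, 0.0502 under library totals and 0.0869 without control 2). The erythroid miR-451, transcribed together with miR-144, was scarce as chi-miR-451-5p, at 15.3, 15.7 and 15.4 CPM against 9.23, 16.7 and 13.2 CPM. It was not called (-0.25 ± 0.21, edgeR adjusted p = 0.391), and the ratio of miR-144 to miR-451 counts overlapped between the groups, with 14.6, 15.9 and 18.1 in the controls and 19.3, 9.69 and 12.3 with exposure. ssa-miR-222a-5p, known from endothelial and blood cells of mammals, stood at 4978, 8212 and 6806 CPM in the controls and at 4353, 4473 and 4615 CPM with exposure. Control 1 was the closest to the exposed libraries, and the log2 fold change was -0.57 ± 0.17 (edgeR adjusted p = 0.0379, 0.104 under library totals and 0.132 without control 3). Its neighbour gga-miR-221-5p was at 2592 ± 140 and 2647 ± 201 CPM (0.03 ± 0.09, edgeR adjusted p = 0.815). The ratio of miR-222a to miR-221 was lowest in control 1 among the controls (1.93) and highest in exposed library 1 (1.80), so the groups did not overlap. hsa-miR-130b-5p, of a family active in human endothelial cells, went from 6188 ± 976 to 4543 ± 257 CPM (-0.45 ± 0.12, edgeR adjusted p = 0.0365, 0.153 under library totals and 0.139 without control 3). The other names of that family were not called, with log2 fold changes of 0.21 ± 0.15 for ola-miR-130c (edgeR adjusted p = 0.342) and 0.02 ± 0.14 for ipu-miR-130c (adjusted p = 0.932). The white blood cell name mmu-miR-142b rose from 3.82, 4.20 and 3.48 to 5.54, 6.01 and 5.82 CPM, that is from 17 to 22 counts to 35 to 39 counts (0.59 ± 0.15, edgeR adjusted p = 0.0437, 0.168 without control 3). The DESeq2 test gave 0.291 for it. The more abundant ola-miR-142 was not called, at 31.7 ± 5.65 and 36.5 ± 5.44 CPM (0.21 ± 0.17, edgeR adjusted p = 0.391), and tgu-miR-142-5p had counts identical to it. The white blood cell miRNA tgu-miR-155-5p was at 29.8 ± 2.10 and 27.9 ± 2.40 CPM (-0.10 ± 0.13, edgeR adjusted p = 0.631, and 0.10 under library totals).

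Of the muscle miRNAs, miR-206 was lower with TMM and its genomic neighbour miR-133b was not. ssa-miR-206-5p, made in skeletal muscle, was at 248798, 281519 and 267291 CPM in the controls and at 195052, 216962 and 185464 CPM with exposure. In CPM all exposed libraries were below all controls, with a log2 fold change of -0.42 ± 0.10 (edgeR adjusted p = 0.0229, 0.0502 under library totals and 0.0908 without control 3). As shares of all listed counts the groups overlapped, at 14.6%, 20.9% and 19.3% in the controls and 15.7%, 18.1% and 16.8% with exposure. The overlap lay in control 1, whose listed total differs in make-up. The 115 names took 61.4% of it, against 76.4% to 81.5% in the other libraries. rno-miR-133b-5p was at 326, 226 and 179 CPM in the controls and at 445, 314 and 345 CPM with exposure, and the groups overlapped (0.60 ± 0.23, edgeR adjusted p = 0.0983). The ratio of miR-206 to miR-133b counts was 764, 1243 and 1497 in the controls and 438, 691 and 538 with exposure, without overlap, a mean difference of -1.04 on the log2 scale. ggo-miR-499a, of slow and cardiac muscle, was at 5043 ± 292 and 5244 ± 108 CPM (0.06 ± 0.08, edgeR adjusted p = 0.637). The list thus had 3 names tested, with 1 lower, beside 13.9% lower over all 115 names, and a median log2 fold change of 0.06. Scaled by library totals, 0 were lower and 1 was higher, beside 1.74% and 27% over all 115. tgu-miR-1-2-5p, a name of the muscle miRNA miR-1, was counted only in control 1 (100144) and exposed library 2 (132723).

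In the nervous system list 2 of 12 tested names were lower and 0 higher, a count near the 13.9% lower over all 115 names, with a median log2 fold change of -0.09. Scaled by library totals, 1 was lower and 0 were higher, beside 1.74% and 27% over all 115. mdo-miR-128a-5p, a neuronal miRNA, stood at 56880, 89709 and 79432 CPM in the controls and at 41541, 42499 and 45388 CPM with exposure. In CPM the exposed libraries were close to each other and below each control, with a log2 fold change of -0.80 ± 0.16 (edgeR adjusted p = 0.0220, 0.0235 under library totals and 0.0804 without control 2). As shares of all listed counts the groups overlapped, at 3.34%, 6.66% and 5.72% in the controls and 3.34%, 3.54% and 4.11% with exposure. Here too the overlap lay in control 1, in which the 115 names took 61.4% of the listed counts, against 76.4% to 81.5% elsewhere. ola-miR-128 had the same counts within 1.0% in the 4 libraries in which it was counted, and was at 0 in control 3 and exposed library 3. aca-miR-132-5p, whose level in neurons of mammals follows their activity, went from 471, 488 and 550 CPM to 339, 373 and 415 CPM (-0.42 ± 0.12, edgeR adjusted p = 0.0365, 0.265 under library totals and 0.139 without control 3). Its ratios to the counts of aca-miR-212-5p and ssa-miR-212a-5p, names of the miRNA made from the same transcript, overlapped between the groups. The other neural names were not called. Among them aca-miR-9-5p was at 327473 ± 16654 and 314990 ± 49246 CPM (-0.06 ± 0.12, edgeR adjusted p = 0.781), the neuronal ola-miR-124-5p at 406 ± 30.1 and 462.4 ± 47.2 CPM (0.19 ± 0.12, adjusted p = 0.249) and ssa-miR-137-5p at 52.8 ± 11.1 and 41.6 ± 3.23 CPM (-0.34 ± 0.17, adjusted p = 0.18).

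All 4 let-7 names tested had negative log2 fold changes under both scalings, beside 53 of all 115 names with TMM. Of the 4, 3 were called lower with TMM and 0 under library totals, beside 13.9% and 1.74% over all 115 names. mse-let-7a was at 11986, 12508 and 11575 CPM in the controls and at 9663, 9552 and 9701 CPM with exposure. The spread within each group was small beside the difference, with a log2 fold change of -0.32 ± 0.07 (edgeR adjusted p = 0.0227, 0.269 under library totals and 0.0869 without control 2). ola-let-7g fell from 6332 ± 550 to 5072 ± 110 CPM (-0.32 ± 0.09, edgeR adjusted p = 0.0364) and ssc-let-7i from 2290 ± 191 to 1811 ± 102 CPM (-0.34 ± 0.10, adjusted p = 0.0365), and both were called in only 1 of the 6 fits without a library. ola-let-7e, at 33.6 ± 3.68 and 28.7 ± 3.13 CPM, was not called (-0.23 ± 0.14, edgeR adjusted p = 0.249). The median of the list was -0.32, against 0.03 for all 115 names, and -0.13 against 0.22 under library totals. miR-100, whose gene lies near let-7 and miR-125 genes in many animals, was lower too. ola-miR-100 was at 217.8, 214.1 and 250.3 CPM in the controls and at 169.9, 150.1 and 151.4 CPM with exposure (-0.53 ± 0.12, edgeR adjusted p = 0.0227, 0.0695 under library totals and 0.0869 without control 2), while chi-miR-125b-5p was at 1874 ± 70.6 and 1828 ± 220 CPM. The count ratio of miR-100 to miR-125b was 0.1199, 0.1156 and 0.1282 in the controls and 0.1078, 0.0777 and 0.0766 with exposure, without overlap.

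The miR-17-92 family and its paralogous clusters had 10 names tested, of which 5 were higher and 1 lower with TMM and 6 higher and 0 lower under library totals. Over all 115 names 9.57% were higher and 13.9% lower with TMM, and 27% and 1.74% under library totals. The role in cell division is ascribed to the cluster's members, including sha-miR-92a, which was called lower with TMM. Cell division itself was not tested. ola-miR-17 was at 3988, 3507 and 3673 CPM in the controls and at 5488, 5544 and 4955 CPM with exposure, and ola-miR-106a at 1099, 1003 and 1004 against 1474, 1485 and 1376 CPM. The groups were far apart beside their spread, with log2 fold changes of 0.52 ± 0.09 and 0.48 ± 0.09 (edgeR adjusted p = 0.0220 for both, with 0.0804 and 0.0869 without control 2). ola-miR-19b was at 289, 252 and 259 CPM against 405, 342 and 409 CPM (0.53 ± 0.12, edgeR adjusted p = 0.0227, 0.0869 without control 2), and ssa-miR-19c-4-5p, with counts within 1.0% of it, is the same evidence. dre-miR-93 rose from 446, 424 and 396 CPM to 579, 546 and 542 CPM (0.40 ± 0.10, edgeR adjusted p = 0.0277, 0.0992 without control 2). sha-miR-92a, a member of the same clusters with a higher level than any of these names, was lower with TMM, at 19664, 18457 and 21639 CPM against 15259, 15173 and 16412 CPM (-0.35 ± 0.09, edgeR adjusted p = 0.0277), but not under library totals (-0.16, adjusted p = 0.277) or without control 3 (adjusted p = 0.105). The ratio of miR-17 to miR-92a counts was 0.203, 0.190 and 0.170 in the controls and 0.360, 0.365 and 0.302 with exposure. That ratio needs no scaling, and its groups lay 0.87 apart on the log2 scale without overlap, as did those of miR-19b to miR-92a (0.88). In the paralogous cluster of miR-106, miR-93 and miR-25, the ratio of miR-106a to miR-25 was 0.132, 0.163 and 0.167 in the controls and 0.249, 0.245 and 0.254 with exposure. hsa-miR-25-5p itself was at 6850 ± 1305 and 5804 ± 340 CPM (-0.24 ± 0.13, edgeR adjusted p = 0.211). oan-miR-20a-5p was not called (0.28 ± 0.10, edgeR adjusted p = 0.0806), and neither were ssa-miR-18a-5p (-0.16 ± 0.09, adjusted p = 0.206) and chi-miR-18b-5p (0.13 ± 0.12, adjusted p = 0.452).

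**Figure D2:**
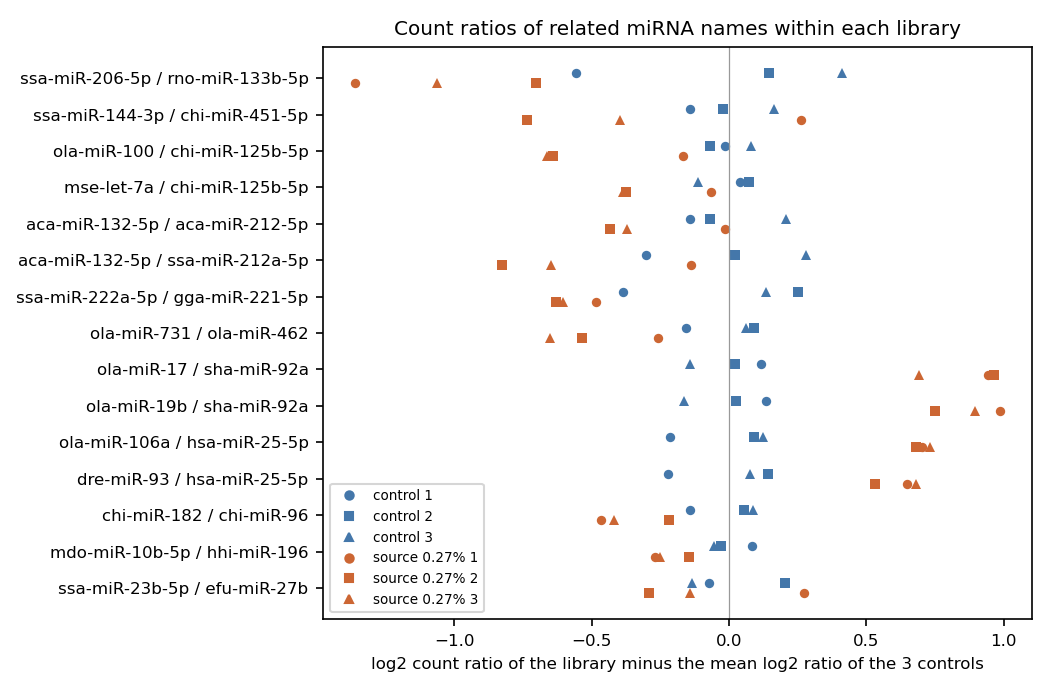
Count ratios of related names within each library, as the log2 ratio minus the mean log2 ratio of the 3 controls, with controls in blue and exposed libraries in orange. Ratios to miR-92a and miR-25 lie above the controls by 0.62 to 0.88 on average, the ratio of miR-206 to miR-133b lies 1.04 below, and the ratio of miR-144 to miR-451 overlaps; the pairs were chosen with values known and were not tested.

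Of the miRNAs encoded in Hox clusters, which pattern the body axis, the names of miR-10b were lower with TMM and the other 3 names were not called. mdo-miR-10b-5p was at 2764, 2769 and 2829 CPM in the controls and at 2101, 2267 and 2140 CPM with exposure (-0.36 ± 0.08, edgeR adjusted p = 0.0227, 0.185 under library totals and 0.0869 without control 2). sha-miR-10b was at 2783 ± 33.7 and 2253 ± 109 CPM (-0.30 ± 0.08, edgeR adjusted p = 0.031). Its counts were nearly equal to those of mdo-miR-10b-5p in the controls and in exposed libraries 2 and 3. Only exposed library 1 differed, with 16586 against 14793 counts, so the 2 calls are largely the same evidence. The controls were very close to each other for both names, and all exposed libraries were lower. hhi-miR-196 (1247 ± 75.3 and 1130 ± 8.73 CPM, edgeR adjusted p = 0.249), tgu-miR-196 (5101 ± 232 and 4446 ± 265 CPM, adjusted p = 0.12) and tur-miR-10-5p (22.4 ± 3.71 and 10.5 ± 5.64 CPM, adjusted p = 0.0752) were not called. With TMM 2 of 5 tested names were called lower and all 5 were negative, beside 13.9% called lower and 53 of 115 negative over all names. hhi-miR-196 was positive under library totals (0.05). The median of the list was -0.30, and -0.12 with 0 calls under library totals.

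Among the remaining calls, aca-miR-34b-5p, a target of p53 in mammals, rose from 42.2, 35.4 and 31.1 CPM to 47.7, 66.8 and 72.5 CPM. Exposed library 1 stood nearest to the controls (0.78 ± 0.19, edgeR adjusted p = 0.0277, 0.0156 under library totals and 0.102 without control 3). efu-miR-29b, of a family that targets collagens in mammals, had the largest log2 fold change of the 27 (1.52 ± 0.29) on the fewest reads. It had 2, 5 and 4 counts in the controls and 14, 12 and 14 with exposure. The name passed the filter on counts through the exposed libraries alone, so this is a description and its p is not given. It was not called by the DESeq2 test, nor by edgeR without control 3. rno-miR-3570, the only call outside the miRNA lists, had 18, 11 and 20 counts against 44, 33 and 32 (0.83 ± 0.23, edgeR adjusted p = 0.0364), and it was called in 0 of the 6 fits without a library (0.0537 to 0.0992). ccr-miR-722 and ssa-miR-722-5p had identical counts, at 24.6, 27.5 and 27.2 CPM against 34.7, 37.1 and 37.5 CPM. Raised miR-722 lowers neutrophil migration in zebrafish. The groups were apart in both names (0.46 ± 0.12, edgeR adjusted p = 0.0297, 0.0908 without control 3). ola-miR-731, of a teleost cluster raised by hypoxia in zebrafish, was lower with TMM, at 73.3, 75.7 and 82.7 CPM against 56.1, 57.9 and 59.9 CPM (-0.41 ± 0.11, edgeR adjusted p = 0.0364, 0.232 under library totals and 0.132 without control 3). Its neighbour ola-miR-462 was at 34.3 ± 2.49 and 36.3 ± 6.07 CPM, and their count ratio was 2.02, 2.40 and 2.35 in the controls and 1.88, 1.55 and 1.43 with exposure, without overlap and with no test.

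The miR-23/24/27 cluster had no called name with TMM. Its 8 tested names all had positive log2 fold changes, beside 62 of all 115 names. They ran from 0.22 to 0.49, with a median of 0.25. However, ssa-miR-24a-4-5p had counts identical to those of fru-miR-24-5p and is no separate evidence. mdo-miR-24-3p shared these counts in controls 1 and 2 and in exposed libraries 1 and 3. Under library totals 5 of the 8 were called higher, beside 31 of all 115 names (27%), and the median was 0.45, with 0.22 for all names. ola-miR-27d-3p, with the largest of them, was at 247, 254 and 146 CPM in the controls and at 282, 305 and 324 CPM with exposure (0.49 ± 0.21, edgeR adjusted p = 0.119). ipu-miR-107b (2429 ± 280 and 3620 ± 889 CPM, 0.58 ± 0.18) and the pancreatic islet miRNA ipu-miR-375 (10546 ± 530 and 8582 ± 776 CPM, -0.30 ± 0.09) both missed the threshold at an edgeR adjusted p of 0.0501. The other of the 2 tested names of the pancreas list, tgu-miR-217-5p, was positive (0.22) and not called. Of these 2 names 1 was called higher under library totals, beside 27% over all 115 names. Of 9 names described in fish the 2 miR-722 names were called higher, beside 9.57% higher over all 115 names. ssa-miR-734-5p had the largest log2 fold change of the 9 (0.63 ± 0.24, edgeR adjusted p = 0.0983). pma-miR-203a-3p, of the epidermis, was at 16265 ± 1400 and 19854 ± 1584 CPM (0.29 ± 0.10, edgeR adjusted p = 0.0696). ola-miR-21, raised by injury in many tissues, was at 69868 ± 5276 and 73005 ± 2814 CPM (0.06 ± 0.09, adjusted p = 0.637). Lists of liver and gut, connective tissue, miR-181 and miR-430 had 2, 4, 3 and 1 tested names with 0 calls and median log2 fold changes of -0.22, 0.05, 0.01 and 0.25. The names with the smallest p in them were ssa-miR-194b-5p (-0.33 ± 0.22, edgeR adjusted p = 0.269), ola-miR-214 (0.28 ± 0.15, adjusted p = 0.206), ssa-miR-181b-5p (-0.07 ± 0.08, adjusted p = 0.544, and 0.12 under library totals) and ola-miR-430a (0.25 ± 0.16, adjusted p = 0.252). No name of the miR-15/16 family was counted in every library and passed the filter.

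**Figure D3:**
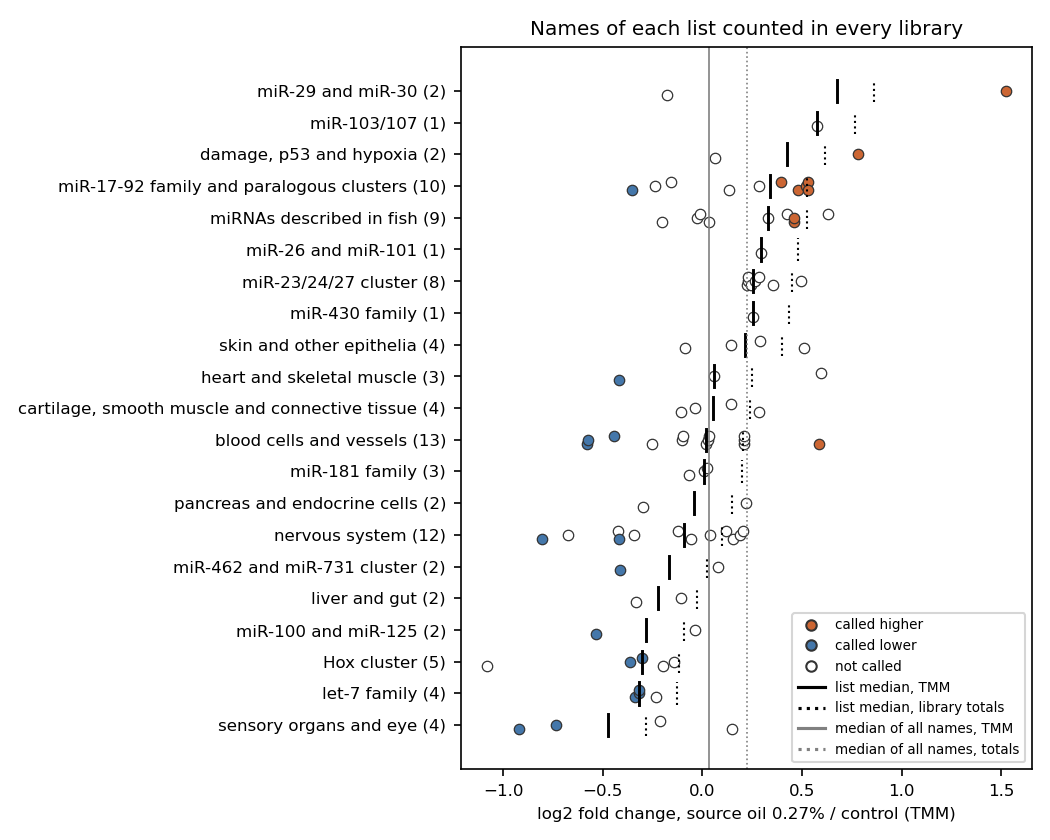
Log2 fold changes (TMM) of the names of each miRNA list that were counted in every library, with the number of names in parentheses, called names filled in orange (higher) or blue (lower) and list medians as black bars. Dotted bars give the medians under library totals and grey lines the medians of all 115 names (0.03 and 0.22). With TMM the let-7 and Hox lists lie wholly below 0 (hhi-miR-196 of the latter turns positive under library totals) and the miR-23/24/27 cluster wholly above. Lists of 2 names are one-sided too, with liver and gut and miR-100 and miR-125 below 0 and damage, p53 and hypoxia above.

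When the fit took in all 158 names that passed the filter on counts, zeros included, 2 (1.27%) were called by edgeR, both lower. The common biological coefficient of variation was 134% in that fit and 13.5% among the 115 names. An unadjusted p under 0.05 was reached by 38 names, and DESeq2 called 31. ola-miR-184-5p was 1 of the 2 calls (-0.90 ± 0.10, edgeR adjusted p = 0.0366). The other, with the smaller p, was tni-let-7d, with 61026, 61584 and 51151 counts in controls 1 to 3 and 0 counts in each exposed library. With the exposed group set to a floor of 3 counts in all, it was at least 57500-fold lower. It passed the filter through the controls alone, so this is a description and its p is not given. In control 1 the name dre-let-7d-5p had 61031 counts, nearly those of tni-let-7d, and it was at 0 in the other 5 libraries. It was not tested whether reads of tni-let-7d were counted under another name in the exposed libraries. No name was at 0 in all controls.

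Names of 1 miRNA number could be at 0, or at uneven counts, in different libraries. ipu-miR-218a had 23429, 0 and 19951 counts in the controls and 85661, 75335 and 81771 with exposure, and ola-miR-218b 66772, 62507 and 56484 against 35118, 26336 and 81847. The names of miR-218, a miRNA of motor neurons, thus went in opposite directions in exposed libraries 1 and 2, while the highest name per library was at 66772, 62507 and 56484 counts against 85661, 75335 and 81847. Its log2 fold change was 0.14 ± 0.07 (edgeR adjusted p = 0.218). ola-miR-125a-5p had 14625, 15861 and 16332 counts in the controls and 0, 15258 and 0 with exposure. In control 1, 11 names were counted that were at 0 in all other libraries, and 5 of these had another name of their number in every other library.

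**Figure D4:**
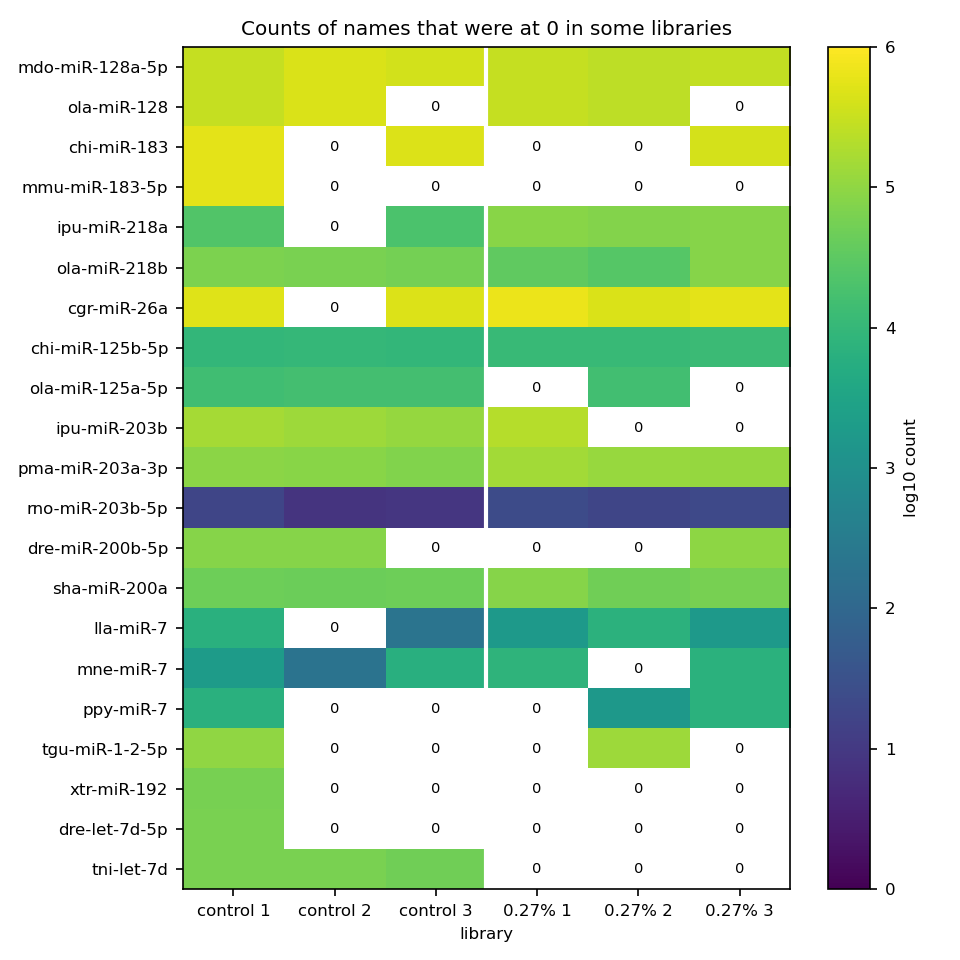
Counts of 21 names in the 6 libraries as log10 of the count in colour, with white cells for 0, chosen to show miRNA numbers whose names were at 0 in some libraries, beside names of the same number. tni-let-7d is at 0 in the 3 exposed libraries only, whereas chi-miR-183 and dre-miR-200b-5p, for example, are at 0 in libraries of both groups.

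The comparison was therefore repeated by miRNA number. With the highest name of each number taken per library, 11 of 88 numbers (12.5%) were called by edgeR, 7 higher (miR-17, miR-106, miR-29, miR-722, miR-93, miR-19 and miR-34) and 4 lower (miR-184, miR-206, miR-128 and let-7). Of these, miR-722, miR-19 and miR-128 join names with counts within 1.0% of each other where both were counted. The others but let-7 have 1 name each. For let-7 the highest count in each library was that of mse-let-7a or of tca-let-7-5p, within 1.0% of each other where both were counted. For every called number the same counts, or nearly the same for let-7, were thus tested again, and these calls are no separate evidence. miR-29 passed the filter through the exposed libraries alone, so its call, here and with names summed, is only a description. miR-184 had a log2 fold change of -0.86 ± 0.11 (edgeR adjusted p = 0.0194) and let-7 -0.26 ± 0.06 (adjusted p = 0.0452). miR-144 (-0.52 ± 0.13, edgeR adjusted p = 0.0535) and miR-204 (-0.67 ± 0.19, adjusted p = 0.0662) missed the threshold. With the names of a number summed, 7 of 88 (7.95%) were called, miR-17, miR-106, miR-93, miR-19 and miR-29 higher and miR-184 and miR-10 lower. Of these only miR-10 joins names with differing counts, mainly the miR-10b names, whose calls are largely the same evidence. The miR-10 sum also holds ssa-miR-10a-5p, with 4562 counts in control 1 and 0 in the other 5 libraries.

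The authors' deposited table called 10 names higher and 23 lower of 190 at an adjusted p under 0.05. It shares 26 names with the 27, which is 96.3% of these and 78.8% of the authors' 33. The remaining name of the 27, mmu-miR-142b, has an adjusted p of 0.121 in the authors' deposited table. Names called in the authors' deposited table alone were chi-miR-182, hhi-miR-196, tgu-miR-196, ipu-miR-375, oar-miR-30d, ssa-miR-181b-5p and tni-let-7d. Both calls rest on the same 6 libraries.

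The next question was whether 0.27% differed from the concentrations on either side of it. Exposed libraries were compared directly, so that no control was shared, in a fit of the 109 names counted in all 12 source oil libraries. Against 0.135%, edgeR called 0 of 109 names (0%), with 20 at an unadjusted p under 0.05 and 2 by DESeq2. The smallest p belonged to ssc-let-7i (-0.34 ± 0.10), ssa-miR-19c-4-5p (0.45 ± 0.13) and ola-miR-19b (0.45 ± 0.13), all with an edgeR adjusted p of 0.131. In that fit ola-miR-184-5p was at 9114, 8937 and 7317 CPM at 0.135% and at 6244, 6969 and 6478 CPM at 0.27%. These libraries did not overlap, but the log2 difference of -0.37 ± 0.12 was not called (edgeR adjusted p = 0.135). ssa-miR-144-3p was at 245.8, 203.4 and 232.6 CPM against 189.6, 169.0 and 169.7 CPM (-0.37 ± 0.12, edgeR adjusted p = 0.135). Under library totals 6 names were called, all higher at 0.27%.

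Against 0.54%, edgeR called 0 of 109 names (0%), with 7 at an unadjusted p under 0.05 and 1 by DESeq2. ssa-miR-144-3p had the smallest p, at 189.6, 169.0 and 169.7 CPM at 0.27% and at 133.7, 137.5 and 128.6 CPM at 0.54%, a difference of 0.40 ± 0.12 on the log2 scale (edgeR adjusted p = 0.459). chi-miR-182 (0.20 ± 0.07) and ola-miR-21 (-0.23 ± 0.09) followed, with an edgeR adjusted p of 0.774. ola-miR-184-5p, at 5418, 5969 and 6428 CPM at 0.54%, overlapped with 0.27% (0.14 ± 0.12, edgeR adjusted p = 0.82), and so did ola-miR-204 at 5774, 7234 and 7536 CPM against 5103, 7325 and 8288 CPM (0.01 ± 0.16, adjusted p = 0.982).

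Set against the shared source controls, the log2 fold changes of ola-miR-184-5p at 0.135%, 0.27% and 0.54% were -0.54 ± 0.12, -0.91 ± 0.12 and -1.05 ± 0.12. Those of ssa-miR-144-3p were -0.19 ± 0.12, -0.56 ± 0.12 and -0.97 ± 0.12, and those of ola-miR-19b 0.10 ± 0.13, 0.55 ± 0.13 and 0.83 ± 0.13. Other called names were nearly level between 0.27% and 0.54%. Examples were mdo-miR-128a-5p (-0.45, -0.79 and -0.78), ola-miR-204 (-0.31, -0.72 and -0.73) and mse-let-7a (-0.04, -0.31 and -0.30). The 3 values of a name share their controls, so their order is not independent.

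**Figure D5:**
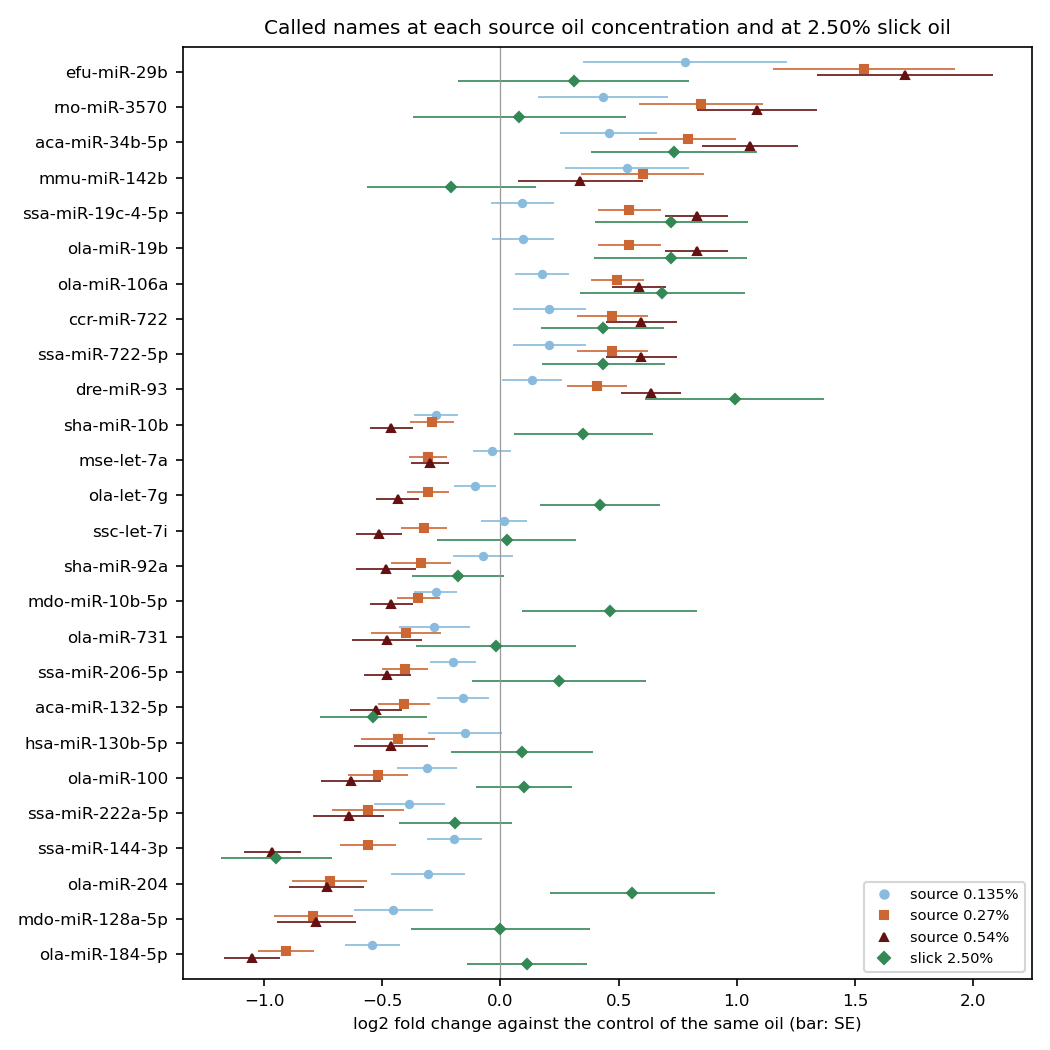
Log2 fold changes with SE bars of the called names at 0.135%, 0.27% and 0.54% source oil against the shared source controls (109 names counted in all 12 libraries, which leaves out ola-miR-17) and at 2.50% slick oil against the slick controls. For ola-miR-184-5p the source oil values are -0.54, -0.91 and -1.05, and the slick oil value is 0.11; no slick value was fitted for mse-let-7a.

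The last comparison asked whether the response to 0.27% source oil differed from that to 2.50% slick oil, each against its own control. Only the middle rank of concentration is matched, since the percentages of the oils differ. For 111 names counted in all 12 libraries, the interaction of oil and exposure gave 0 calls (0%) by edgeR, 8 names at an unadjusted p under 0.05 and 0 calls by DESeq2. ola-miR-184-5p was at 8073, 8687 and 7188 CPM in the slick controls and at 9744, 11144 and 4963 CPM at 2.50% slick oil. Slick library 3 lay below its controls and the other two above. The log2 fold changes of -0.92 ± 0.26 for source and 0.11 ± 0.25 for slick oil differed by -1.03 ± 0.36 (edgeR adjusted p = 0.378). ola-miR-204 had a difference of -1.29 ± 0.49, ola-let-7e of -0.97 ± 0.32 and ola-miR-27d-3p of 0.95 ± 0.33, each with an edgeR adjusted p of 0.378. The erythroid ssa-miR-144-3p was at 391.2, 459.9 and 378.4 CPM in the slick controls and at 205.1, 286.2 and 146.7 CPM at 2.50%, a log2 fold change of -0.95 ± 0.23 beside -0.57 ± 0.23 for source oil, with a difference of 0.38 ± 0.33 (edgeR adjusted p = 0.671). Slick 2.50% library 3 stood apart from its group. ssa-miR-206-5p, for example, was at 80742 CPM in it and at 234804 and 389400 CPM in the other two. Without that library edgeR called 9 names, with differences of -1.26 ± 0.20 for ola-miR-184-5p (adjusted p = 0.00388) and -1.03 ± 0.26 for ssa-miR-206-5p (adjusted p = 0.0482). Leaving out any other single library gave 0 calls. ssa-miR-206-5p was also the name used to show that library apart, so its call is no separate evidence. The 9 calls are given as a description, since that library was singled out with its values known.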

How the data were processed

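Small RNA of pooled whole larvae was isolated (miRNeasy) and libraries were prepared (NEBNext), per the labels' protocols. The authors deposited whole-number read counts per mature miRNA name, 1 table per oil and concentration. How reads were aligned, which miRBase release was used and how reads matching several names were counted is not given in the sources used here. The authors also deposited a table of their test, which the submitters' processing notes credit to DESeq2 (version not given there). It holds, per the file headers, a mean signal per group (from the values, size-factor-scaled counts), a score that is the difference of these means, a log2 fold change, and a p-value with its adjusted p-value. All count columns were matched to samples by title, and 0 columns stayed unmatched.

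Counts were tested with edgeR 4.0.16 in R 4.3.3 (TMM, glmQLFit and glmQLFTest, no covariate) on names that reached 10 counts in 3 or more libraries, with Benjamini-Hochberg adjustment over all names tested and calls at an adjusted p under 0.05. The SE is the absolute log2 fold change over the square root of F. The narrower set had a count in every library of the fit. Fits across the 3 source tables used the 190 names whose control counts were equal in all 3. The fit of both oils had a mean for each group of oil and exposure, and the difference of the responses was a contrast of these means. The test was checked on simulated counts. Alternatives were DESeq2 1.42.0 (test and size factors), library totals (of the names in the fit), robust dispersion, other filters and a replicate block. Names joined by number and leaving out each library were further alternatives. The rule for named miRNAs was all calls, the 8 most abundant names, up to 4 names with the smallest p of each list, the 3 smallest p of each further comparison, and names at 0 in a whole group. Not every name of a list is printed, and cluster or family neighbours and names showing zeros were added after their values were seen. The members, lists and tests were chosen with earlier results of these data known. PCR reads are not independent molecules, so the floor of 3 counts covers counting error only. No sequence is printed.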

Additional observations from a re-analysis of the deposited data

How the results depend on the processing

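Among names with a count in each library, the calls were 27 of 115, and 26 to 33 of 115 with DESeq2's size factors, DESeq2's test, robust dispersion or library totals. The 33 under library totals were 31 higher and 2 lower, and only 13 of them were among the 27. Of the 28 called by DESeq2's test, 22 were among the 27. The calls numbered 29 of 109 names with all 12 source libraries, 25 of 100 with at least 100 counts in every library, 16 of 129 counted in at least 5 libraries, 11 of 88 numbers by their highest name and 7 of 88 by their sum. Without 1 library they ranged from 1 to 46. Over all names, 2 calls became 31 with DESeq2's test, 13 with all 12 source libraries, 10 under library totals and 1 with no filter on counts, and 1 to 6 without 1 library. Against 0.135% source oil, 0 calls became 2 with DESeq2's test and 6 under library totals, and against 0.54% 1 with DESeq2's test. The difference from slick oil gave 0 to 9 calls without 1 library.

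Whether replicate numbers pair the samples is not known. Same-numbered libraries deviated from their group means with correlations of -0.07, 0.19 and -0.31, and differently numbered ones with -0.25 to 0.31. With 3 libraries a group these correlations cannot decide it. A replicate block left 1 call of the 27, 0 of the 2 over all names, 3 against 0.135% and 0 in the other comparisons.

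Of the values of single names under the alternatives, 773 kept direction and call, 39 gained a call, 17 changed sign and the rest lost a call. Under library totals, names below the control turned positive, aca-miR-212-5p to 0.074, aca-miR-9-5p to 0.12, chi-miR-125b-5p to 0.16, hhi-miR-196 to 0.049, ola-miR-194-5p to 0.086, ssa-miR-18a-5p to 0.030, ssa-miR-181b-5p to 0.12 and tgu-miR-155-5p to 0.098. Without 1 library the log2 fold change ran from -0.26 to 0.027 for aca-miR-212-5p, from -0.19 to 0.049 for aca-miR-9-5p, from -0.11 to 0.037 for chi-miR-125b-5p, from -0.017 to 0.072 for gga-miR-221-5p, from -0.12 to 0.10 for ipu-miR-130c and from -0.048 to 0.18 for ola-miR-462. None of these was called, and the causes were not tested. With 3 libraries a group and names of 2 to 44 counts such as efu-miR-29b and rno-miR-3570, depth limits the lowest levels.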
